A study of Mus musculus with 12 samples.

Results

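The response of Cre-infected condylar cells to osteogenic induction was taken from 6 of the 12 RNA libraries of the series, chosen by their labels: 3 of OI-AdV-CRE-EGFP, after 4 days in inducing medium, and 3 of AdV-CRE-EGFP, on day 0. All genes of the table were examined. The libraries came from cells of the mandibular condyle, the jaw end of the temporomandibular joint, of newborn Plagl1 fl/fl mice, in which both Plagl1 alleles carry target sites of Cre. Cells of every group were infected with adenovirus at a multiplicity of infection of 100. In OI-AdV-CRE-EGFP and AdV-CRE-EGFP the virus carried Cre and EGFP, a fluorescent marker, and in OI-AdV-EGFP and AdV-EGFP, 3 libraries each and used here for comparison, EGFP without Cre. The medium held 5 mM β-glycerophosphate, 50 µg/mL ascorbic acid and 100 nM dexamethasone, a synthetic glucocorticoid. No library of day 4 without this medium was analysed here, so the medium and 4 more days of culture and infection cannot be told apart. The labels give no culture or animal for a replicate, so a p-value here reflects how far libraries spread, and that spread may be technical.

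Osteogenic medium is used to drive mesenchymal cells towards osteoblasts. Under factors such as Runx2 and Sp7 (osterix), cells leave the cell cycle, build a collagen matrix and then turn on genes of mineralization, among them Alpl, Ibsp, Bglap and Dmp1. Dexamethasone binds the glucocorticoid receptor, a transcription factor that enters the nucleus with its ligand. In mesenchymal precursors glucocorticoids also favour genes of fat cells, whose master regulator is the receptor Pparg.

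Of 22063 genes, 13670 passed the filter on low counts and were tested, on total counts of 16300899 to 16768011 in OI-AdV-CRE-EGFP and 15499837 to 16706751 in AdV-CRE-EGFP. Levels are CPM, counts relative to the scaled size of each library. Changes are log2 fold changes of OI-AdV-CRE-EGFP over AdV-CRE-EGFP. The value after ± is the size of the change over the square root of the edgeR F statistic. It approximates a standard error, and is too small for large changes where a group has few counts. A gene is said to have risen or fallen where edgeR gave an adjusted p under 0.05 and a log2 fold change of at least 1 in size. By this rule 1646 genes (12% of those tested) rose and 1179 (8.62%) fell, while the median over all tested genes was 0.017. At the adjusted p alone the counts were 4910 and 4826. Of the genes that rose 1613 had no overlap between the groups, and of those that fell 1161; among all tested genes 37.0% were higher and 36.5% lower without overlap. The risen genes held 10.1% to 10.2% of the counts in OI-AdV-CRE-EGFP and 3.01% to 3.05% in AdV-CRE-EGFP, and the fallen genes 2.91% to 2.92% and 7.90% to 7.93%. A log2 fold change of at least 4 in size was reached by 168 risen and 21 fallen genes. The root mean square difference of log2 CPM was 1.05 to 1.06 between the groups and 0.323 to 0.361 between libraries of a group.

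Plagl1, the zinc finger gene that Cre was aimed at, had 382, 404 and 368 CPM in OI-AdV-CRE-EGFP and 581, 594 and 592 CPM in AdV-CRE-EGFP, a log2 fold change of −0.61 ± 0.04 that was short of the threshold. In EGFP cells it had 402, 393 and 379.5 CPM in OI-AdV-EGFP and 386, 426 and 390.2 CPM in AdV-EGFP. Plagl1 RNA was thus higher in the libraries labelled AdV-CRE-EGFP than in those labelled AdV-EGFP, and overlapped between the induced groups. Gene totals do not show the loss of an exon. The groups are named by their labels throughout, and every direction below is one between libraries labelled OI-AdV-CRE-EGFP and AdV-CRE-EGFP.

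The libraries had the markers of mesenchymal cells, with Vim at 4369 to 4542 CPM in OI-AdV-CRE-EGFP and 4509 to 4686 CPM in AdV-CRE-EGFP, and Prrx1 at 735 to 768 CPM and 1018 to 1036 CPM. The 9 cartilage markers, mostly Sox9, summed to 70.5 to 72.5 CPM in OI-AdV-CRE-EGFP and 64.1 to 66.6 CPM in AdV-CRE-EGFP, and Snorc was at 0 in all 6 libraries. Of these markers Comp, a matrix protein of cartilage and tendon, rose, with 14.2, 18.9 and 14.2 CPM in OI-AdV-CRE-EGFP and 1.52, 1.65 and 1.09 CPM in AdV-CRE-EGFP (3.46 ± 0.17). Sox9, Acan, Matn3 and Col10a1 were lower without overlap, as were 36.5% of all tested genes. For Sox9 the gap was small, with 50.5, 47.5 and 49.5 CPM in OI-AdV-CRE-EGFP and 51.4, 51.3 and 53.9 CPM in AdV-CRE-EGFP. Col10a1 fell, with 0.242, 0.432 and 0.656 CPM in OI-AdV-CRE-EGFP and 1.76, 1.25 and 1.48 CPM in AdV-CRE-EGFP. Erythroid markers summed to at most 0.302 CPM and epithelial markers to at most 2.33 CPM. In such bulk RNA, fewer cells of a type and less RNA per cell cannot be told apart.

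Known glucocorticoid targets were strongly raised after 4 days. Of 24 tested genes of this list 16 rose and 0 fell, with a median log2 fold change of 1.80. Here and in 10 further lists where edgeR called 0 fallen genes, 0 to 7 members were lower at an unadjusted p under 0.05 and DESeq2 called 0. In the 6 lists with 0 risen genes, 0 to 39 were higher at that p, and DESeq2 called a risen gene in 1 of them. Tsc22d3, which encodes the anti-inflammatory protein GILZ, had 502, 478 and 516 CPM in OI-AdV-CRE-EGFP and 19.3, 19.9 and 16.1 CPM in AdV-CRE-EGFP, a log2 fold change of 4.76 ± 0.06 (adjusted p = 9.87e-27). Fkbp5, a chaperone partner that restrains the receptor, had 375, 388 and 365 CPM in OI-AdV-CRE-EGFP, against 19.2, 18.5 and 19.8 CPM in AdV-CRE-EGFP (4.29 ± 0.06). In both genes the groups lay far apart and the libraries of a group close together. Zbtb16 (PLZF), a zinc finger factor, had 38.8, 41.2 and 36.9 CPM in OI-AdV-CRE-EGFP, against 0.183, 0.396 and 0.385 CPM in AdV-CRE-EGFP (6.90 ± 0.15). Hif3a, of the hypoxia-inducible factor family, had 55.3, 56.1 and 54.2 CPM in OI-AdV-CRE-EGFP, against 0, 0.0659 and 0.257 CPM in AdV-CRE-EGFP (8.92 ± 0.21). These genes, with Klf15 (5.24 ± 0.21), rose out of levels near 0. Zbtb16, Hif3a and the list member Sult1a1, with 1 count in AdV-CRE-EGFP, passed the filter only through other groups. A fall could hardly have been called for them, which bears on the count of 0 fallen and the median. The metal-binding Mt2 and Mt1 rose by 3.18 ± 0.06 and 2.03 ± 0.05. The receptor gene Nr3c1 (−0.52 ± 0.05) and the fast targets Per1 (0.59 ± 0.07) and Dusp1 (0.14 ± 0.07) were not called.

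**Figure D1:**
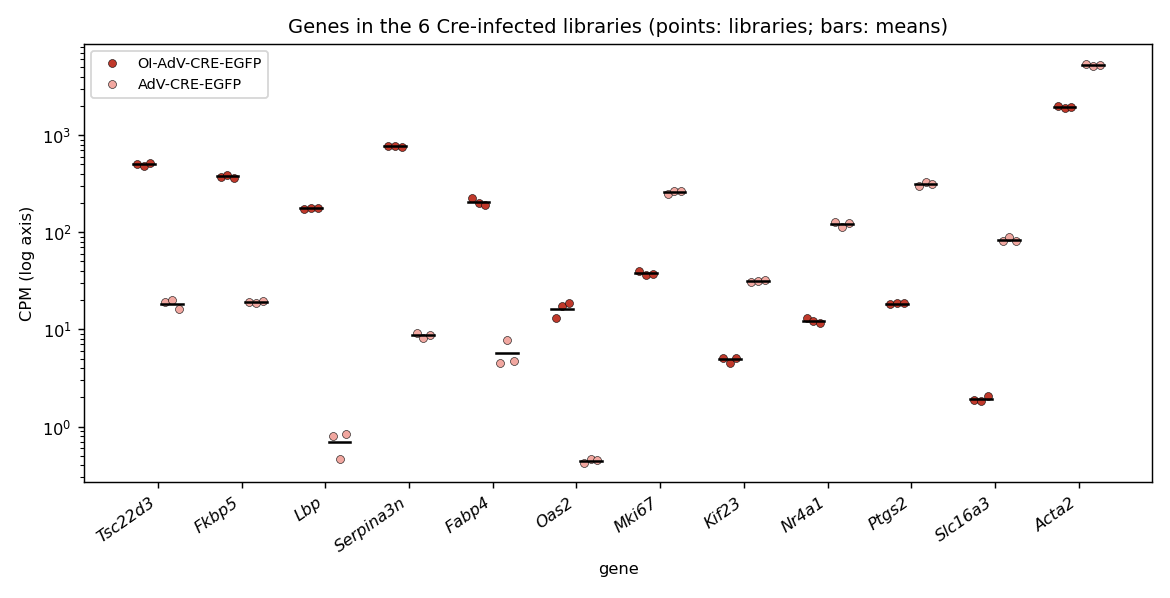
CPM of 12 genes (log axis) in the 3 OI-AdV-CRE-EGFP libraries (dark points, left of each pair) and the 3 AdV-CRE-EGFP libraries (pale points, right), with bars at the group means. Tsc22d3, Fkbp5, Lbp, Serpina3n, Fabp4 and Oas2 lie higher in OI-AdV-CRE-EGFP and Mki67, Kif23, Nr4a1, Ptgs2, Slc16a3 and Acta2 lie lower, with no overlap in any of the 12.

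Among the largest rises were those of detoxifying enzymes and protease inhibitors. Fmo2, a flavin monooxygenase that oxidises foreign compounds, had 135, 133 and 126 CPM in OI-AdV-CRE-EGFP and 0.609, 0.659 and 1.03 CPM in AdV-CRE-EGFP (7.41 ± 0.12), and its relative Fmo1 rose by 5.40 ± 0.07. Sult1a1, a sulfotransferase, had 1056 counts over the OI-AdV-CRE-EGFP libraries and 1 count over the AdV-CRE-EGFP libraries, a ratio of 1010 with a 95% counting interval of 180 to 39700. Serpina3m, a serine protease inhibitor, had 3885 counts against 1, a ratio of 3700 (663 to 146000). These intervals cover counting error only, and Serpina3m has near-identical neighbours with which it may share reads. Aldh1a1, which makes retinoic acid, had 409, 391 and 390.4 CPM in OI-AdV-CRE-EGFP, against 5.66, 5.54 and 5.97 CPM in AdV-CRE-EGFP (6.11 ± 0.08). Among 21 tested genes of retinoid and foreign compound metabolism 12 rose and 4 fell; Crabp1, which binds retinoic acid, fell (−2.92 ± 0.08) and Aldh1a3, another enzyme that makes it (−2.06 ± 0.17).

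Acute phase genes, best known from the liver in inflammation, rose in 10 of 12 cases and fell in 0, with a median of 4.83. Of 18 listed genes only these 12 passed the filter on low counts. Serpina3m, Lcn2, Orm1 and Saa3 had 1 to 3 counts over the AdV-CRE-EGFP libraries. They passed the filter only through other groups, so a fall could not have been called for them, which bears on the count and the median. Lbp, which binds bacterial lipopolysaccharide, had 174, 179 and 178 CPM in OI-AdV-CRE-EGFP and 0.791, 0.462 and 0.835 CPM in AdV-CRE-EGFP (7.97 ± 0.10, adjusted p = 2.46e-27). Serpina3n had 769.9, 766 and 755 CPM in OI-AdV-CRE-EGFP, against 9.25, 8.11 and 8.8 CPM in AdV-CRE-EGFP (6.45 ± 0.06). Hp (haptoglobin), which takes up free haemoglobin, rose by 5.74 ± 0.30. Lcn2 (lipocalin 2), which binds bacterial iron carriers, had 364 counts against 2, a ratio of 173 (47.6 to 1440). Genes of iron handling were among the risen too: Scara5, a ferritin receptor, had 246, 249 and 232 CPM in OI-AdV-CRE-EGFP, against 1.58, 1.45 and 0.899 CPM in AdV-CRE-EGFP, and the ferroxidase Cp and the metalloreductase Steap4 rose by 3.22 ± 0.06 and 3.69 ± 0.17. The transferrin receptor Tfrc fell (−1.59 ± 0.07); of 16 iron genes 4 rose and 1 fell.

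Complement followed, with 12 of 18 genes risen, 0 fallen and a median of 2.54. Members near 0 in AdV-CRE-EGFP, such as Cfb and C3, passed the filter only through other groups. A fall could hardly have been called for them, which bears on the count of 0 and the median. Factor B (Cfb) had 19, 21 and 23.9 CPM in OI-AdV-CRE-EGFP and 0.487, 0.198 and 0 CPM in AdV-CRE-EGFP (6.47 ± 0.27), and C3, at the centre of the cascade, had 21.9, 26.6 and 20.5 CPM in OI-AdV-CRE-EGFP, against 0.548, 0.264 and 0.321 CPM in AdV-CRE-EGFP (5.88 ± 0.20). The inhibitors Serping1 and Clu rose with these activators, by 4.14 ± 0.06 and 4.27 ± 0.11. C1qa, a gene of macrophages, had 15.4, 14.2 and 17.8 CPM in OI-AdV-CRE-EGFP, against 0.487, 0.264 and 0.835 CPM in AdV-CRE-EGFP (4.88 ± 0.21). The 9 macrophage and osteoclast markers, of which Ctsk and Lyz2 made up most, summed to 1330 to 1380 CPM in OI-AdV-CRE-EGFP and 813 to 883 CPM in AdV-CRE-EGFP, and none was at 0 in all 6 libraries. Their part in the complement rise was not tested.

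Interferon-stimulated genes rose almost as a block. Of 35 tested 32 rose and 0 fell, with a median of 2.65. For members near 0 in AdV-CRE-EGFP, such as Oas2, a fall could hardly have been called, which bears on the count of 0 and the median. Oas2, an antiviral enzyme that senses double-stranded RNA, had 13, 17.3 and 18.8 CPM in OI-AdV-CRE-EGFP and 0.426, 0.462 and 0.450 CPM in AdV-CRE-EGFP (5.18 ± 0.21, adjusted p = 8.98e-17). Its relative Oasl2 had 48.4, 49 and 54.4 CPM in OI-AdV-CRE-EGFP, against 2.8, 3.23 and 4.11 CPM in AdV-CRE-EGFP (3.90 ± 0.18), and Ifi27l2a had the largest change of the list (6.43 ± 0.31). The groups did not overlap in any of these 3 genes. Ifi27 (0.94 ± 0.08), Ifit2 (0.74 ± 0.10) and Irf1 (−0.05 ± 0.11) were not called. Genes of MHC class I and peptide loading, which show cell peptides to T cells, had 10 of 16 risen and 0 fallen, with a median of 1.07. H2-T23 and H2-K1 rose the most among the MHC genes themselves, by 2.67 ± 0.10 and 1.85 ± 0.07.

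The promoter of Oas2, from 250 bases before to 50 after the annotated start (chr5:120887884-120888183, minus strand, GRCm39), is shown because it holds the core of the interferon-stimulated response element, through which interferon switches genes on. Capitals mark the match to GAAANNGAA, which lies on the other strand.

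Oas2: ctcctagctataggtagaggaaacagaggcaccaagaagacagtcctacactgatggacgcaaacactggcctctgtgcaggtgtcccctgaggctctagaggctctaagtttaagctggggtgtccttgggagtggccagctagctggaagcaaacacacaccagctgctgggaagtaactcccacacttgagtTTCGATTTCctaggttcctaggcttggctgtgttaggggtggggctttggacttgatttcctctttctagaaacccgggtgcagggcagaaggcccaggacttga

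Searched on both strands, GAAANNGAA was in 19 of 35 promoters of interferon-stimulated genes (54.3%), in 7.95% of 13657 promoters of tested genes, in 11.4% of those of risen genes and in 8.31% of those of fallen genes. The glucocorticoid response element core ACANNNTGT was in 1 of 24 promoters of glucocorticoid targets (4.17%), in 4.44% of all, in 7.54% of those of risen genes and in 3.56% of those of fallen genes. A match describes letters and is not a site in use.

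Genes of the fat cell programme rose in 11 of 15 cases and fell in 0, with a median of 2.16. Lep and Adipoq were near 0 in AdV-CRE-EGFP and passed the filter only through other groups, so a fall could hardly have been called for them. Pparg had 129.5, 130.2 and 127 CPM in OI-AdV-CRE-EGFP and 23.8, 24 and 25 CPM in AdV-CRE-EGFP (2.41 ± 0.06, adjusted p = 1.37e-21). Fabp4, a fatty acid carrier and target of Pparg, had 228, 199 and 189 CPM in OI-AdV-CRE-EGFP, against 4.5, 7.85 and 4.75 CPM in AdV-CRE-EGFP (5.18 ± 0.12), and Plin4, which coats lipid droplets, had 160.4, 176 and 170.1 CPM in OI-AdV-CRE-EGFP, against 11.3, 10.2 and 9.5 CPM in AdV-CRE-EGFP (4.03 ± 0.07). The lipoprotein lipase gene Lpl rose by 2.16 ± 0.05 and the lipid carrier Apod by 4.45 ± 0.11. All 5 genes had groups that did not overlap. Markers of mature fat cells were scarce: Adipoq (adiponectin) had 3.2, 2.34 and 2.33 CPM in OI-AdV-CRE-EGFP, and Plin1 and Cidec at most 0.308 and 0.185 CPM there. The 6 adipocyte markers summed to 318 to 361 CPM in OI-AdV-CRE-EGFP and 28.8 to 32.1 CPM in AdV-CRE-EGFP, nearly all of it Pparg and Fabp4. Lep (leptin) had 27 counts in OI-AdV-CRE-EGFP and was at 0 in all AdV-CRE-EGFP libraries, at least 2.86-fold higher against a floor of 3 counts in each library; with Lep at that bound the median of the list was 1.62. Of 19 genes of fatty acid oxidation 3 rose and 0 fell, beside 12% risen and 8.62% fallen among all tested genes, so the risen count was not far from the background. Acadm, which shortens medium chains, was among the risen (1.39 ± 0.05).

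Bone matrix and mineralization genes moved both ways. Of 19 tested 4 rose and 8 fell, with a median of −0.72. Dmp1, a matrix protein of osteocytes, had 1.15, 0.678 and 0.716 CPM in OI-AdV-CRE-EGFP and 4.93, 4.88 and 3.66 CPM in AdV-CRE-EGFP (−2.40 ± 0.46, adjusted p = 6.54e-05). Phex, an osteocyte endopeptidase, had 1.09, 1.3 and 0.954 CPM in OI-AdV-CRE-EGFP, against 2.98, 3.5 and 3.6 CPM in AdV-CRE-EGFP (−1.59 ± 0.26). In both the groups did not overlap. Enpp1 and Ank, which supply the mineral inhibitor pyrophosphate, fell with log2 fold changes of −1.65 ± 0.10 and −1.36 ± 0.06, the phosphate carrier Slc20a1 (−1.61 ± 0.05), and Tnfsf11 (RANKL), the signal for osteoclast formation (−2.0 ± 0.23). Smpd3, a sphingomyelinase needed for mineralization in mice, ran the other way with 52.9, 59.8 and 59.9 CPM in OI-AdV-CRE-EGFP, against 3.41, 3.43 and 2.57 CPM in AdV-CRE-EGFP (4.19 ± 0.12). Mgp, an inhibitor of calcification, rose by 1.76 ± 0.06 and the parathyroid hormone receptor Pth1r by 1.16 ± 0.14. Bglap (osteocalcin) rose by 1.30 ± 0.47 at a low level, with 0.966, 1.11 and 2.03 CPM in OI-AdV-CRE-EGFP, against 0.608, 0.791 and 0.257 CPM in AdV-CRE-EGFP. Its near-identical copy Bglap2, with which it may share reads, was not called (0.99 ± 0.20). Leaving out 1 library gave 3 to 5 risen genes of this list. The 3 came without OI-AdV-CRE-EGFP replicate 3 or AdV-CRE-EGFP replicate 3, which held the highest and the lowest Bglap level. Bglap by itself was not checked in this way. Alpl, the phosphatase that frees phosphate for mineral, had 2.29, 2.22 and 2.5 CPM in OI-AdV-CRE-EGFP, against 2.56, 2.9 and 0.642 CPM in AdV-CRE-EGFP and was not called (0.20 ± 0.38, adjusted p = 0.648).

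Ibsp (bone sialoprotein) had 4.29, 3.51 and 5.66 CPM in OI-AdV-CRE-EGFP and 29.8, 32.4 and 0.578 CPM in AdV-CRE-EGFP. The groups overlapped, since AdV-CRE-EGFP replicate 3 lay below every OI-AdV-CRE-EGFP library. The fall (−2.22 ± 0.91, adjusted p = 0.0327) rested on the other libraries: it was lost without any 1 of the other 5, at adjusted p of 0.0586 to 0.134, and kept without AdV-CRE-EGFP replicate 3 (−2.77, adjusted p = 0.00381). DESeq2 gave an adjusted p of 0.153, and over all alternatives the adjusted p ran from 7.85e-75 without a low-count filter to 0.598. Replicate 3 of AdV-CRE-EGFP was also the lowest of its group in Alpl, Sp7 and Bglap, and AdV-EGFP replicate 3 was likewise the lowest of its group in Ibsp. The 7 osteoblast markers summed to 38.1 to 42.6 CPM in OI-AdV-CRE-EGFP and 53.7 to 93.4 CPM in AdV-CRE-EGFP. Without AdV-CRE-EGFP replicate 3, 1671 genes rose and 1150 fell.

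Of 13 transcription factors of the osteoblast line 1 rose (Zfp467, 1.53 ± 0.18) and 1 fell (Dlx3, −1.14 ± 0.28). The counts were near the 12% risen and 8.62% fallen among all tested genes. Both calls were lost in limma on log2(FPKM + 1). Runx2 had 28.6, 30.0 and 30.6 CPM in OI-AdV-CRE-EGFP and 49, 50.3 and 48 CPM in AdV-CRE-EGFP, lower without overlap but short of the threshold (−0.72 ± 0.06). Sp7 had 0.725, 1.05 and 1.01 CPM in OI-AdV-CRE-EGFP, against 2.01, 1.52 and 0.450 CPM in AdV-CRE-EGFP, which overlap (−0.52 ± 0.42, adjusted p = 0.274). Spp1 (osteopontin) and Sparc (osteonectin), made by many mesenchymal cells, had 0.94 ± 0.04 and 0.44 ± 0.03 and were not called.

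**Figure D2:**
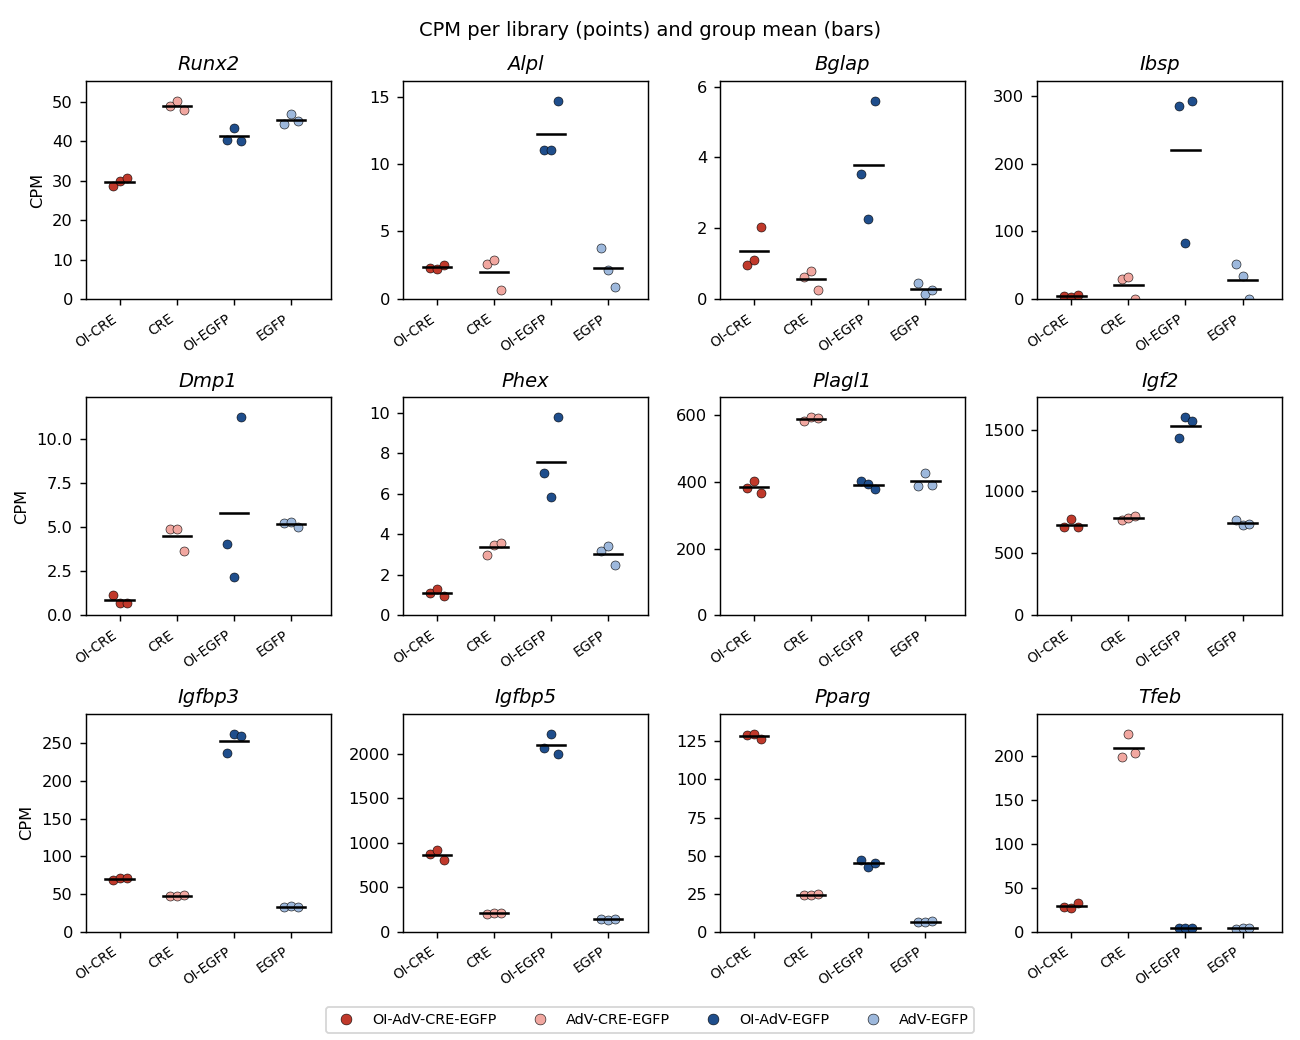
CPM in every library (points) and group means (bars) of 12 genes in OI-AdV-CRE-EGFP (OI-CRE), AdV-CRE-EGFP (CRE), OI-AdV-EGFP (OI-EGFP) and AdV-EGFP (EGFP), on linear axes from 0 that differ between panels. Alpl, Ibsp, Igf2, Igfbp3 and Igfbp5 have their highest mean in OI-AdV-EGFP, Pparg in OI-AdV-CRE-EGFP and Tfeb in AdV-CRE-EGFP.

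Several matrix genes rose, while the main bone collagen was not called. Col1a1, a chain of that collagen, had 6031, 6020 and 5969 CPM in OI-AdV-CRE-EGFP and 5206, 4911 and 4970 CPM in AdV-CRE-EGFP (0.26 ± 0.05). Of 28 collagens 6 rose and 2 fell, beside 12% risen and 8.62% fallen among all tested genes. The basement membrane chains Col4a1 and Col4a2 rose by 1.38 ± 0.05 and 1.45 ± 0.05 and Col8a2 by 2.11 ± 0.09. The fallen Col22a1 was at 0 in OI-AdV-CRE-EGFP and had 23 counts in AdV-CRE-EGFP, at least 2.68-fold lower against a floor of 3 counts in each library; without AdV-CRE-EGFP replicate 1 its call was lost (adjusted p = 0.0516) and 1 collagen fell. Postn (periostin), a protein of periosteum and fibrous tissue, had 7297, 7189 and 7153 CPM in OI-AdV-CRE-EGFP and 1802, 1896 and 1867 CPM in AdV-CRE-EGFP (1.96 ± 0.04). Elastin (Eln) and Lox, the enzyme that crosslinks elastin and collagen, rose by 3.07 ± 0.09 and 1.13 ± 0.04. They were the only 2 risen of 22 elastic fiber genes, while 3 fell, Fbln1, Ltbp2 and Fbln5. These counts were not far from the shares of all tested genes, and tested against a 2-fold change 1 fell. Small leucine-rich proteoglycans, which bind collagen fibrils, rose in 5 of 10 cases and fell in 0, with a median of 0.90. Prelp had 526, 554 and 521 CPM in OI-AdV-CRE-EGFP, against 74.1, 75.2 and 78.4 CPM in AdV-CRE-EGFP (2.81 ± 0.05), and Omd (osteomodulin) had 74.7, 83.4 and 71 CPM in OI-AdV-CRE-EGFP, against 9.68, 11.1 and 10.6 CPM in AdV-CRE-EGFP (2.87 ± 0.09). Aspn and Ogn rose by 1.35 ± 0.06 and 1.21 ± 0.05, and Ecm2 by 1.20 ± 0.30, a call lost without AdV-CRE-EGFP replicate 1 (log2 fold change 0.88). Dcn and Lum were not called (0.30 ± 0.06 and 0.18 ± 0.07). Prg4, the joint lubricant, had 82.4, 86 and 69.6 CPM in OI-AdV-CRE-EGFP, against 5.6, 6.99 and 7.9 CPM in AdV-CRE-EGFP (3.54 ± 0.10), while Scx, a transcription factor of tendon, fell (−2.35 ± 0.17).

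In the IGF axis, whose ligands act through Igf1r and are held by binding proteins, 6 of 20 genes rose and 3 fell. The ligand Igf1 had 227, 207 and 209 CPM in OI-AdV-CRE-EGFP and 83.3, 90.5 and 79.3 CPM in AdV-CRE-EGFP (1.34 ± 0.05). The ligand Igf2 had 711, 774 and 713 CPM in OI-AdV-CRE-EGFP, against 767, 785 and 802 CPM in AdV-CRE-EGFP, which overlap (−0.10 ± 0.04, not called). Igf2r, the receptor that clears Igf2, fell (−1.22 ± 0.04). Among binding proteins, Igfbp5 had 875, 919 and 803 CPM in OI-AdV-CRE-EGFP, against 202, 208 and 206 CPM in AdV-CRE-EGFP (2.08 ± 0.05), and Igfbp3 had 68.8, 70.7 and 71.6 CPM in OI-AdV-CRE-EGFP, against 47.4, 46.7 and 48.6 CPM in AdV-CRE-EGFP, higher without overlap but under the threshold (0.57 ± 0.05). Pappa2, a protease that releases IGF from binding proteins, rose by 3.11 ± 0.05, its relative Pappa fell (−1.28 ± 0.04), and their inhibitor Stc1 (−2.74 ± 0.16). Gas6, a ligand of Axl family receptors, had 943, 992 and 961 CPM in OI-AdV-CRE-EGFP, against 104, 115 and 103 CPM in AdV-CRE-EGFP (3.17 ± 0.04), and Chrdl1, a BMP antagonist, rose by 1.89 ± 0.08; both are counted in this list.

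Genes of mitosis fell nearly without exception. Of 30 tested 29 fell and 0 rose, with a median of −2.05. Mki67, which encodes the proliferation marker Ki-67, had 40.1, 36.5 and 37.4 CPM in OI-AdV-CRE-EGFP and 249, 264 and 267 CPM in AdV-CRE-EGFP (−2.77 ± 0.05, adjusted p = 1.13e-23). Kif23, a kinesin of cytokinesis, had 5.07, 4.5 and 5.13 CPM in OI-AdV-CRE-EGFP, against 30.5, 31.9 and 32.5 CPM in AdV-CRE-EGFP (−2.69 ± 0.10), and the spindle checkpoint kinase Bub1 fell (−2.71 ± 0.11). Of 30 genes of DNA replication 21 fell and 1 rose, with a median of −1.35. Mcm5, a subunit of the replicative helicase, had 13, 13.4 and 13.5 CPM in OI-AdV-CRE-EGFP, against 59.9, 55.8 and 55.4 CPM in AdV-CRE-EGFP (−2.10 ± 0.07), and the loading factors Mcm10 and Cdc6 fell with log2 fold changes of −2.32 ± 0.14 and −2.29 ± 0.17. Rrm2, a subunit of the enzyme that makes deoxynucleotides, was the 1 that rose, with 354, 340.1 and 326 CPM in OI-AdV-CRE-EGFP, against 162, 169 and 163 CPM in AdV-CRE-EGFP (1.05 ± 0.04). Among inhibitors of the cycle Cdkn1c (p57) had 536, 528 and 525 CPM in OI-AdV-CRE-EGFP, against 51.7, 51.2 and 52.1 CPM in AdV-CRE-EGFP (3.36 ± 0.04) and Cdkn2a rose by 1.34 ± 0.06, while Cdkn1a (p21) and Cdkn1b (p27) were not called (−0.56 ± 0.03 and −0.14 ± 0.07). The inhibitor Cdkn2c fell. Of 13 CDK inhibitors and D cyclins 2 rose and 1 fell, beside 12% risen and 8.62% fallen among all tested genes.

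The promoters of Kif23 (chr9:61854024-61854323, minus strand) and Cdc6 (chr11:98798377-98798676, plus strand), both from GRCm39, are shown because they carry motifs known from mitosis and replication genes. In Kif23 the capitals mark a CCAAT box, read on the other strand, and after 4 bases TTTGAA of the cell cycle genes homology region. In Cdc6 they mark the E2F core TTGGCGC, which lies after the annotated start.

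Kif23: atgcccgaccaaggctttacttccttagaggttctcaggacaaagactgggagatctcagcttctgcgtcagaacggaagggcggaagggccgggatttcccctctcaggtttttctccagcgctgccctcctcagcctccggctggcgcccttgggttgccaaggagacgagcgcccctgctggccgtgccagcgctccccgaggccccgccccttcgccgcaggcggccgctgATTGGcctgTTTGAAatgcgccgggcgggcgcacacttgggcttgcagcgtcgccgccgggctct
Cdc6: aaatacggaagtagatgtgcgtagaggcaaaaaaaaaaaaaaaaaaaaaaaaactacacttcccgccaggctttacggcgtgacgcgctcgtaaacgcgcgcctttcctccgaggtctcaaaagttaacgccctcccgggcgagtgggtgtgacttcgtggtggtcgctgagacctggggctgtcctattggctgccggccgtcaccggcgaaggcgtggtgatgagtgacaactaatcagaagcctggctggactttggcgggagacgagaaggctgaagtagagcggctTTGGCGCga

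On either strand TTTGAA was in 16 of 30 promoters of mitosis genes (53.3%) and 13.8% of all promoters, and CCAAT in 20 of 30 (66.7%) and 39.4%. TTGGCGC was in 11 of 30 promoters of replication genes (36.7%) and 3.87% of all. Among the promoters of all fallen genes the 3 shares were 16.6%, 39.0% and 4.66%.

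Immediate early genes, which growth signals switch on within minutes, were mostly lower: 14 of 21 fell and 1 rose. Nr4a1, an orphan nuclear receptor, had 13, 12.2 and 11.6 CPM in OI-AdV-CRE-EGFP and 128, 114 and 124 CPM in AdV-CRE-EGFP (−3.32 ± 0.07), and Egr1 and Fosl1 fell with log2 fold changes of −2.46 ± 0.07 and −2.58 ± 0.08. Fos ran against them, with 15.3, 15.4 and 16.2 CPM in OI-AdV-CRE-EGFP, against 3.96, 4.55 and 3.6 CPM in AdV-CRE-EGFP (1.95 ± 0.13). Of 17 feedback genes of MAP kinase signaling 11 fell and 1 rose, Phlda1 (−2.80 ± 0.09) and the phosphatase gene Dusp5 (−2.75 ± 0.09) the most. Of 30 growth factors and receptors 5 rose and 7 fell: the EGF family ligand Hbegf fell (−2.87 ± 0.09), Areg had 3 counts against 179, a ratio of 0.016 (0.00326 to 0.0474), and Vegfd rose by 2.89 ± 0.06.

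Of 27 genes of prostaglandins, cytokines and chemokines 12 fell and 5 rose. Ptgs2, the inducible cyclooxygenase and a gene that glucocorticoids repress, had 18.2, 18.5 and 18.6 CPM in OI-AdV-CRE-EGFP and 300.4, 327 and 314 CPM in AdV-CRE-EGFP (−4.09 ± 0.08, adjusted p = 1.07e-22). Il1rl1, the receptor of interleukin 33, had 62.6, 62.9 and 62.3 CPM in OI-AdV-CRE-EGFP, against 867, 948 and 964 CPM in AdV-CRE-EGFP (−3.89 ± 0.05). Its ligand Il33 and the chemokine Ccl2 fell with log2 fold changes of −2.90 ± 0.09 and −2.81 ± 0.08, and the chemokine scavenger Ackr4 rose by 2.54 ± 0.14. Of 25 matrix proteases and inhibitors 8 rose and 3 fell. Mmp10 (stromelysin 2) had 2.9, 2.1 and 2.8 CPM in OI-AdV-CRE-EGFP, against 28.1, 29.7 and 32.4 CPM in AdV-CRE-EGFP (−3.53 ± 0.14), Mmp3 fell (−1.80 ± 0.10), and the proteoglycan-cleaving Adamts15 and Adamts5 rose by 3.57 ± 0.19 and 1.71 ± 0.05.

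The promoter of Mmp10 (chr9:7502103-7502402, plus strand, GRCm39) is shown for its AP-1 site, the motif of Fos and Jun dimers. Capitals mark the match to TGANTCA.

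Mmp10: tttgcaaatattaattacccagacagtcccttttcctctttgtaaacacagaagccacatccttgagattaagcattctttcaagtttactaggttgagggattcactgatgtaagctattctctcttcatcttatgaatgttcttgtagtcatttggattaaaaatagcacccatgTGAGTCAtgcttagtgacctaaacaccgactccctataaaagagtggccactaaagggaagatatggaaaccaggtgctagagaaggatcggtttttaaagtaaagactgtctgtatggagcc

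TGANTCA, which reads alike on both strands, was in 5 of 25 promoters of the protease list (20%), 5.69% of all promoters, 8.63% of those of risen genes and 7.72% of those of fallen genes.

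Of 20 contractile and YAP target genes 8 fell, 1 rose and 11 were not called. Acta2 (smooth muscle actin) had 1994, 1899 and 1965 CPM in OI-AdV-CRE-EGFP and 5402, 5202 and 5233 CPM in AdV-CRE-EGFP (−1.43 ± 0.03), and Tagln, Tpm1 and Cnn1 fell with log2 fold changes of −1.67 ± 0.04, −1.81 ± 0.04 and −1.94 ± 0.08; the myosin kinase Mylk rose by 1.69 ± 0.08. The 6 mural cell markers, mostly Acta2 itself, summed to 2150 to 2230 CPM in OI-AdV-CRE-EGFP and 5530 to 5760 CPM in AdV-CRE-EGFP. The 6 skeletal muscle markers, mostly Acta1, summed to 31.3 to 38.0 CPM in OI-AdV-CRE-EGFP and 117 to 127 CPM in AdV-CRE-EGFP, and Acta1 had 20.8, 18.9 and 22.1 CPM in OI-AdV-CRE-EGFP and 114, 107 and 104 CPM in AdV-CRE-EGFP. The sums hide members that went the other way. Of the mural set Cspg4 and Mcam were also lower, but Rgs5, Notch3 and Myh11 were higher in OI-AdV-CRE-EGFP without overlap. Of the muscle set Myh3 was also lower, but Des was higher without overlap. Among all tested genes 37% were higher without overlap. The part of either marker set in these falls was not tested. Actb (−0.71 ± 0.03), Gapdh (−0.60 ± 0.03) and Hprt (0.44 ± 0.04), often used as references, were short of the threshold. They were thus not called, which does not make them unchanged.

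Glycolysis genes fell in 8 of 24 cases and rose in 0. Slc16a3, the lactate exporter MCT4, had 1.87, 1.85 and 2.09 CPM in OI-AdV-CRE-EGFP and 80.6, 89.7 and 80.8 CPM in AdV-CRE-EGFP (−5.43 ± 0.10), the largest fall under the rule for named genes. Ldha, Pfkl and the glucose carrier Slc2a1 fell with log2 fold changes of −1.44 ± 0.04, −1.87 ± 0.05 and −1.53 ± 0.05. Without OI-AdV-CRE-EGFP replicate 2 or 3, or AdV-CRE-EGFP replicate 3, 1 glycolysis gene rose. Of 17 hypoxia-inducible genes 5 fell and 0 rose, Vegfa the most (−2.46 ± 0.06). Of 58 genes of oxidative phosphorylation edgeR called 0 and DESeq2 called 0, while at an unadjusted p under 0.05 39 were higher and 5 lower; without AdV-CRE-EGFP replicate 2, 1 rose. Among 24 genes of amino acid supply 9 fell and 1 rose, and the carriers Slc7a11 and Slc7a5 fell with log2 fold changes of −3.44 ± 0.11 and −2.11 ± 0.06.

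Signaling and clock lists were mixed, beside 12% risen and 8.62% fallen among all tested genes. Wnt signaling had 5 risen and 7 fallen of 28, with the Wnt modulator Sfrp2 at 1.94 ± 0.09 and the ligand Wnt7b at −2.87 ± 0.69; 3 rose without OI-AdV-CRE-EGFP replicate 1, AdV-CRE-EGFP replicate 1 or AdV-CRE-EGFP replicate 3. TGF-beta and BMP signaling had 6 risen and 9 fallen of 30, and its BMP antagonists split, with Chrd risen by 2.29 ± 0.13 and Grem1 fallen (−2.05 ± 0.04). Clock genes had 1 risen and 4 fallen of 18, the repressors Nr1d1 (−1.40 ± 0.09) and Nr1d2 (−1.62 ± 0.07) among the fallen.

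**Figure D3:**
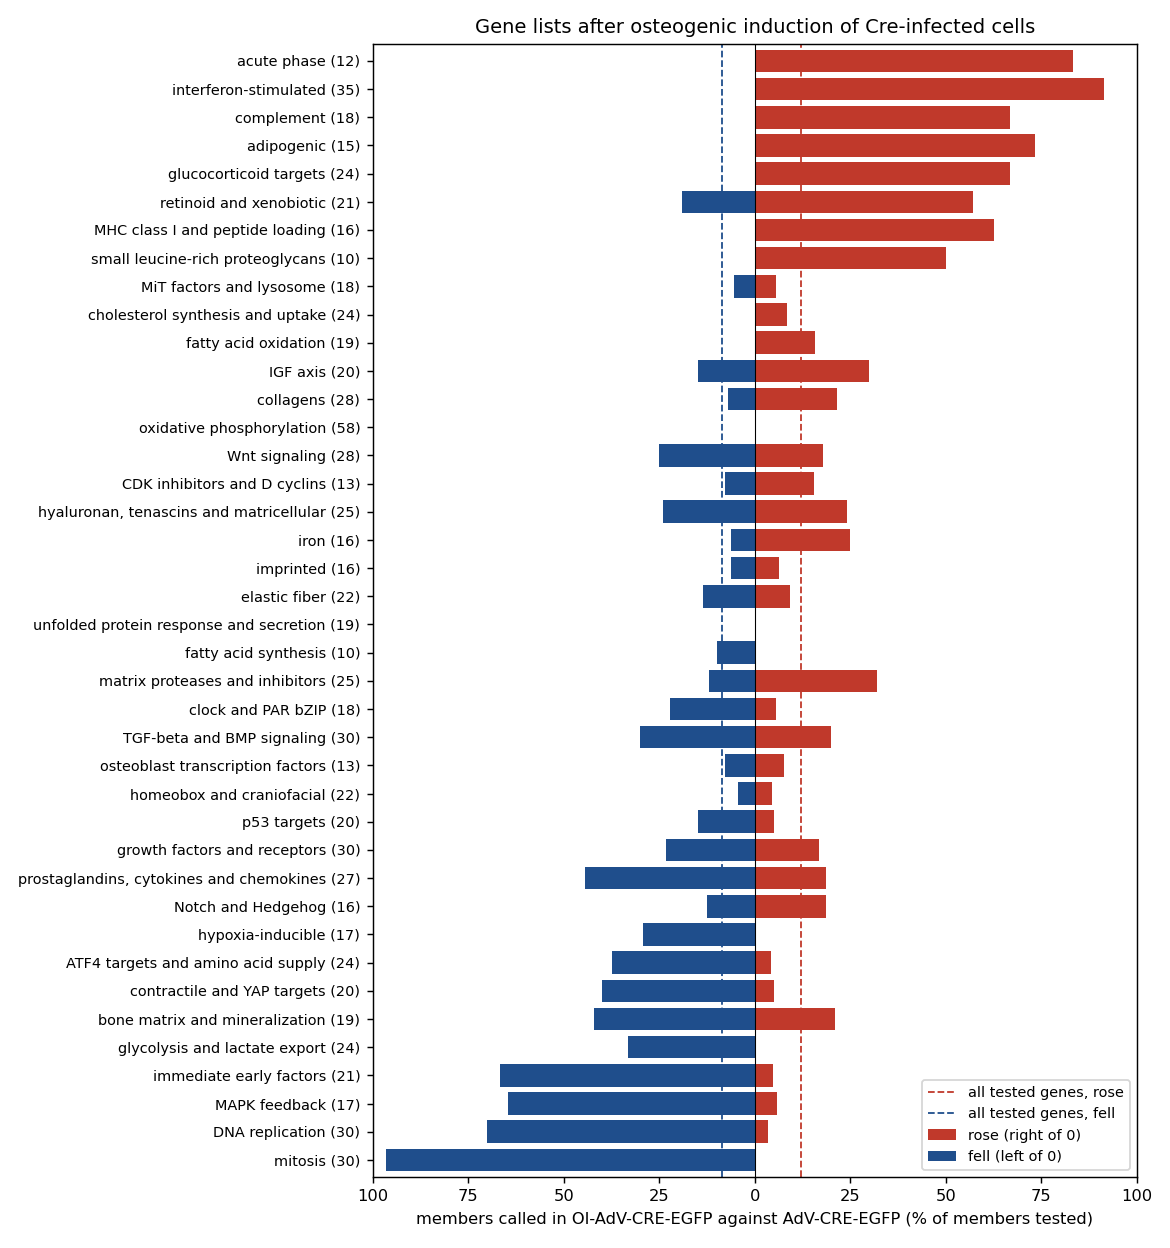
Share of the tested members of 40 gene lists (number in brackets) that rose (right of 0) or fell (left of 0) in OI-AdV-CRE-EGFP against AdV-CRE-EGFP, ordered by median log2 fold change. Dashed lines mark all tested genes, 12% risen and 8.62% fallen; acute phase genes stand at the top and mitosis genes, 29 of 30 fallen, at the bottom.

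Induction of EGFP cells gave more calls: 2063 genes rose (15.1%) and 1478 fell (10.8%) in OI-AdV-EGFP against AdV-EGFP. Both cell sets called 1387 genes as risen, which is 84.3% of the Cre list and 67.2% of the EGFP list, and 962 as fallen (81.6% and 65.1%). The 2 comparisons share no library. Over the tested genes, whose values are not replicates of each other, both sets of fold changes had a Pearson coefficient of 0.884 and a Spearman coefficient of 0.882. In the test of the difference (Cre minus EGFP cells, adjusted p under 0.05) 1467 genes (10.7%) were higher and 1648 (12.1%) lower. Of the genes that rose in Cre cells, 317 rose less and 120 rose more than in EGFP cells by this test, and of those that fell, 326 fell less and 131 fell more.

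**Figure D4:**
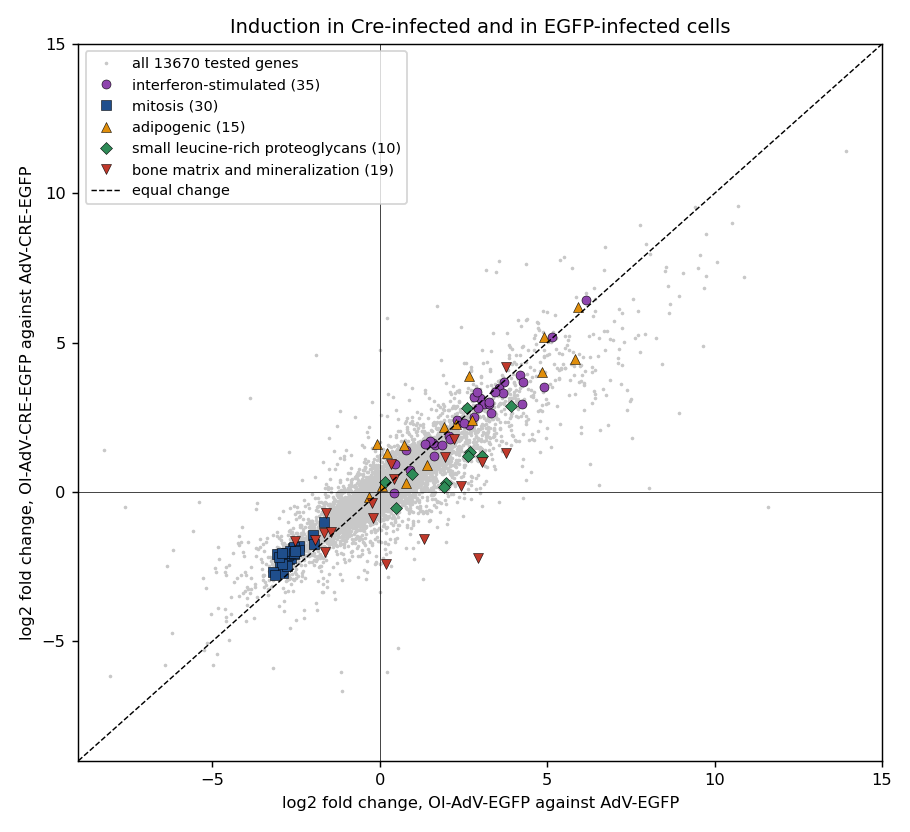
Log2 fold change of OI-AdV-CRE-EGFP against AdV-CRE-EGFP (y axis) and of OI-AdV-EGFP against AdV-EGFP (x axis) for all 13670 tested genes (grey) and 5 lists (coloured). The dashed line marks equal change; 26 of 30 mitosis genes fell less in Cre cells by the test of the difference, and 7 of 10 small leucine-rich proteoglycans were lower.

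Bone and IGF genes were among those that differed. Of 19 bone matrix genes the change was lower in Cre cells for 9 and higher for 5. Alpl had 11, 11 and 14.7 CPM in OI-AdV-EGFP and 3.81, 2.17 and 0.865 CPM in AdV-EGFP, where it rose by 2.43 ± 0.30, and the difference was −2.23 ± 0.50 (adjusted p = 0.00166). Ibsp had 285, 82.2 and 293 CPM in OI-AdV-EGFP and 52.2, 33.8 and 0.432 CPM in AdV-EGFP (difference −5.17 ± 1.03), and Dmp1 and Phex differed by −2.58 ± 0.58 and −2.91 ± 0.33. The Ibsp difference lost its call in limma on FPKM (adjusted p of 0.0547 to 0.13), and the Dmp1 difference in limma on log2(FPKM + 1) (0.0982, and 0.163 without a filter) and in the edgeR test against 2-fold (0.131). In the IGF axis 12 of 20 genes were lower and 4 higher. Igf2 had 1428, 1600 and 1567 CPM in OI-AdV-EGFP and 771, 725 and 734 CPM in AdV-EGFP, a rise of 1.04 ± 0.04, and differed by −1.14 ± 0.06 (adjusted p = 3.80e-13). Igfbp3, Igfbp5 and Gas6 differed by −2.37 ± 0.07, −1.85 ± 0.07 and −1.41 ± 0.06. Of 16 imprinted genes 11 were lower and 2 higher; Peg10, a retrotransposon-derived gene, had 144, 137 and 131 CPM in OI-AdV-CRE-EGFP and 96.4, 103 and 105 CPM in AdV-CRE-EGFP, beside 25.2, 32.4 and 28.1 CPM in OI-AdV-EGFP and 82.4, 77.2 and 81.6 CPM in AdV-EGFP (difference 1.93 ± 0.09).

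Small leucine-rich proteoglycans were lower for 7 of 10 and higher for 2, and Ogn differed by −1.84 ± 0.07. MHC class I genes were lower for 10 of 16. Of 35 interferon-stimulated genes 2 were lower, 1 was higher and 32 were not called, which does not show that they acted alike. Mitosis genes were higher, a smaller fall, for 26 of 30. Mki67 had 41.3, 35.7 and 38.9 CPM in OI-AdV-EGFP and 339, 331 and 341 CPM in AdV-EGFP, so that the induced levels overlapped those of OI-AdV-CRE-EGFP and the day 0 levels were above those of AdV-CRE-EGFP.

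**Figure D5:**
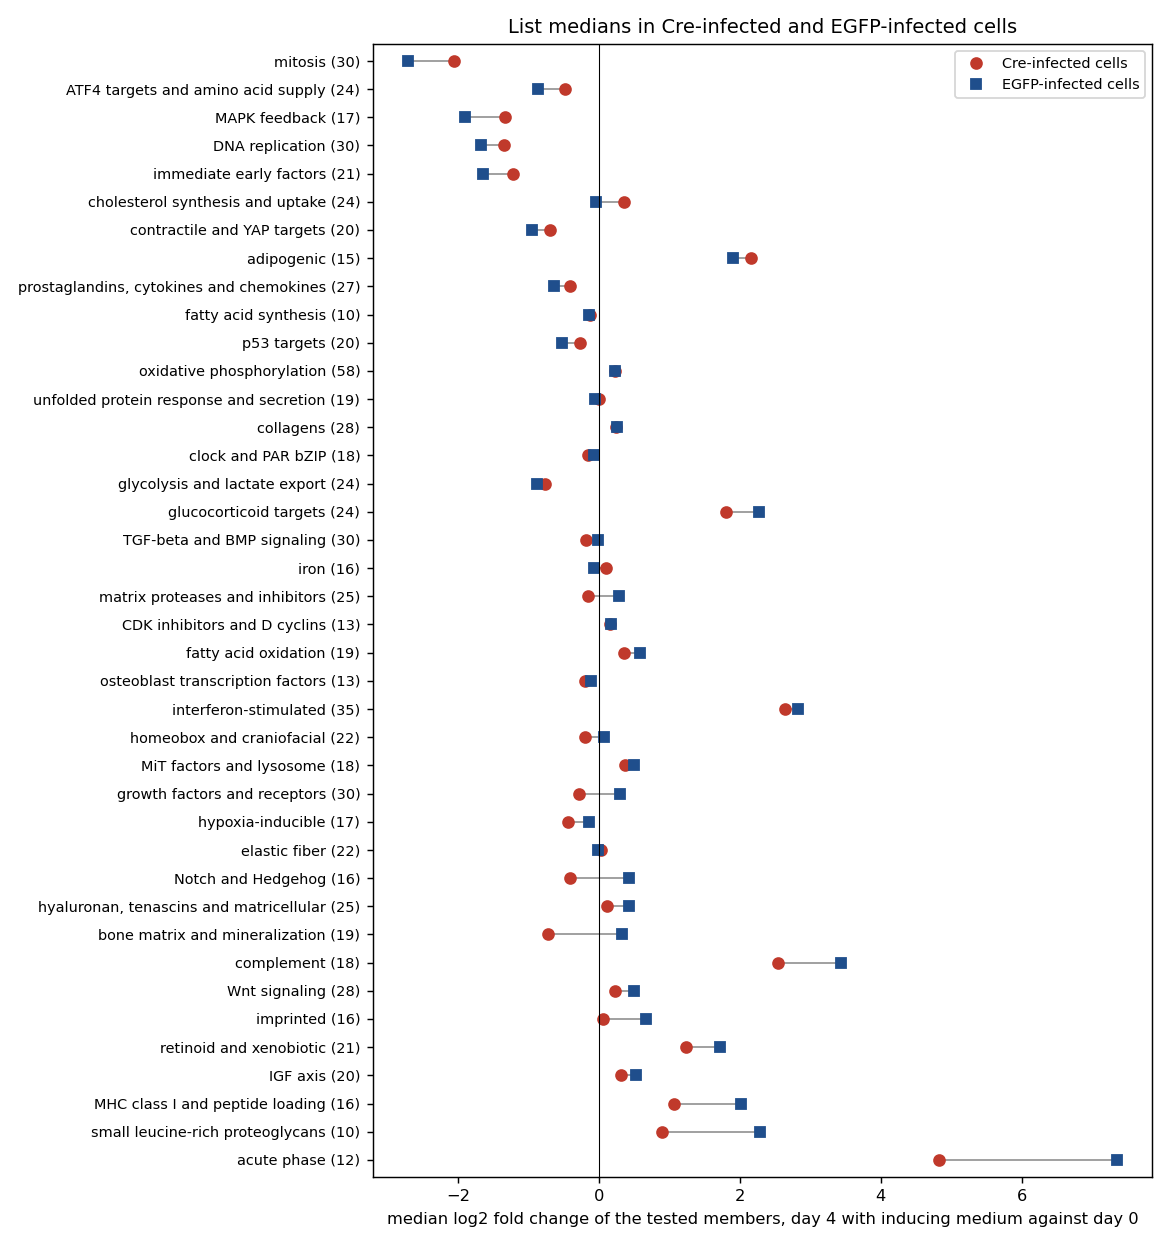
Median log2 fold change of the tested members of 40 lists in Cre cells (circles) and EGFP cells (squares), day 4 with inducing medium against day 0, ordered by the median difference per gene. Mitosis stands at −2.05 in Cre and −2.71 in EGFP cells, small leucine-rich proteoglycans at 0.90 and 2.29, and bone matrix and mineralization at −0.72 and 0.32.

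In all, 69 genes rose and 94 fell in Cre cells, were not called in EGFP cells and differed by the test. Mbnl3, a splicing regulator, had 45.2, 48.5 and 50.5 CPM in OI-AdV-CRE-EGFP and 12.7, 12.1 and 10.7 CPM in AdV-CRE-EGFP, beside 10.1, 9.3 and 9.19 CPM in OI-AdV-EGFP and 10.7, 15.8 and 11 CPM in AdV-EGFP (difference 2.41 ± 0.16). Cd36, a fatty acid carrier and target of Pparg, had 51.4, 55.1 and 51.9 CPM in OI-AdV-CRE-EGFP and 15.8, 17 and 18.8 CPM in AdV-CRE-EGFP, beside 12.9, 9.88 and 11.8 CPM in OI-AdV-EGFP and 13.2, 13 and 10.4 CPM in AdV-EGFP (difference 1.70 ± 0.14). Tfeb, a regulator of lysosome genes, had 28.4, 26.6 and 32.3 CPM in OI-AdV-CRE-EGFP and 199, 226 and 204 CPM in AdV-CRE-EGFP, beside 4.11, 4.53 and 4.35 CPM in OI-AdV-EGFP and 2.71, 4.47 and 3.83 CPM in AdV-EGFP (difference −3.08 ± 0.19); its fall in Cre cells set out from a day 0 level far above that of EGFP cells. Of 18 genes of its family and of lysosomes, Tyrp1 rose and Tfeb fell, beside 12% risen and 8.62% fallen among all tested genes. Without AdV-CRE-EGFP replicate 1, 2 fell. Il33 had a like pattern, with 7.35, 8.66 and 7.12 CPM in OI-AdV-EGFP and 10.1, 10.5 and 10.4 CPM in AdV-EGFP. Called in opposite directions were 5 genes, named after their values were seen: Gjb2, H2ac8 and Tmem182 rose in Cre cells and fell in EGFP cells, and Ibsp and Phex fell in Cre cells and rose in EGFP cells. Gjb2, the gap junction protein connexin 26, had 10.7, 10.2 and 7.16 CPM in OI-AdV-CRE-EGFP and 0.609, 1.85 and 0.706 CPM in AdV-CRE-EGFP, beside 0, 0.0581 and 0.0544 CPM in OI-AdV-EGFP and 0.775, 0.830 and 0.371 CPM in AdV-EGFP (difference 7.02 ± 0.83).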

How the data were processed

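RNA of all 12 libraries (4 groups of 3, grouped by labels) was used. Per the methods, NEBNext Ultra II libraries were trimmed (Cutadapt), aligned (HISAT2, GRCm39) and counted (HTSeq). What the authors deposited is an estimated count per gene in each library, unscaled. In 1646 to 1844 genes per library this is no whole number, although HTSeq yields whole counts. The deposited table also holds FPKM values computed by the authors, used only as an alternative. Annotation release and strand setting: not given in the sources used here. Overlapping and antisense genes are therefore uncertain.

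After rounding, the quasi-likelihood test of edgeR 4.0.16 was run under R 4.3.3, with TMM scaling, filterByExpr, 1 fit of 4 group means over 12 libraries and Benjamini-Hochberg adjustment over 13670 genes. The difference was the interaction in that fit. Alternatives were DESeq2 1.42.0, limma 3.58.1 on log2(FPKM + 1) and log2(FPKM + 0.1), RLE scaling, no filter, the 6 Cre libraries, a test against 2-fold, a replicate block and leaving out each library. Libraries of a group differed by a chi-square of 2.16 to 5.07 per gene, so each was used once. On simulated data for the induction contrast (13478 genes), 0 of 50 genes changed by a log2 of 0.5, 20 of 50 at 1 and 50 of 50 at 1.5 were called, and 0 of 13278 unchanged genes. The calls at 0.5 and 1 are limited by the threshold of 1 itself. For the difference contrast 35 of 50 genes at 0.5 and 50 of 50 at 1 were called, and 4 of 13268 unchanged genes. Genes of low counts were not among those changed.

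Promoters were read from GRCm39 at the starts of the canonical transcripts of the GENCODE annotation, for 13657 of 13670 genes. Named genes were those the study names, the 12 largest rises and falls with a mean of at least 10 CPM and no overlap, the 6 most abundant risen and fallen genes, up to 5 called members of each of 40 lists by size of change, the 8 largest called differences of at least 1 either way with a mean of at least 10 CPM over 12 libraries, and Actb, Gapdh and Hprt. Other list members, including Tsc22d3, Fkbp5, Pparg, Lpl, Fos, Rrm2, Igf1, Phex, Prg4, Scx and Crabp1, were named after their values were seen. Genes and lists were chosen with earlier results of these data known. Some single genes are not reported here.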

Additional observations from a re-analysis of the deposited data

Results flagged for a closer look

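Among the genes that the rule in the methods names, 19 had an adjusted p under 0.05 in the edgeR test of the difference of induction, Cre minus EGFP cells, and a log2 difference of at least 2 in size, given in brackets. Of bone and matrix genes the difference was negative for Ibsp (−5.17), Dmp1 (−2.58), Col22a1 (−6.23), Mmp13 (−3.84), Adamts15 (−2.53) and Smoc1 (−3.27). Signaling genes with a negative difference were Igfbp3 (−2.37), Sfrp2 (−2.35), Dll1 (−3.26) and Il33 (−2.48). The others with a negative difference were Enpep (−3.44), Wfdc3 (−3.37), Tfeb (−3.08), Ppfibp2 (−2.88), Steap4 (−2.24), Car9 (−2.22) and Zfp968 (−12.09). It was positive for Mbnl3 (2.41) and Slc6a15 (2.11). Zfp968 had 0, 19.9 and 16.6 CPM in OI-AdV-CRE-EGFP and 24.5, 16.6 and 10.6 CPM in AdV-CRE-EGFP, and 29.1, 1.1 and 39.5 CPM in OI-AdV-EGFP and 0, 0 and 0 CPM in AdV-EGFP, so that 1 OI-AdV-CRE-EGFP library and all AdV-EGFP libraries were at 0. The fitted differences of Zfp968 and Col22a1, each with a group at 0, depend on the prior count and are neither sizes nor bounds. In limma on log2(FPKM + 1) the Zfp968 call was lost (adjusted p = 0.0773, and 0.137 without a filter). Col22a1, Dll1 and Car9 had under 3 CPM in every library.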

How the results depend on the processing

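Without a low-count filter beyond a total above 0, with DESeq2, with scaling by relative log expression (RLE) or with the 6 Cre libraries alone, the counts of genes that rose and fell stayed within 1.5 times of 1646 and 1179. They were 867 and 578 with limma on log2(FPKM + 1), 868 and 578 with the same and no filter, and 1043 and 746 when tested against a 2-fold change. Among difference calls, 143 were higher and 387 lower with a log2 difference of at least 1 also required. Leaving out 1 library gave 1632 to 1719 risen and 1150 to 1211 fallen genes, and 1242 to 1699 higher and 1294 to 1553 lower differences. With the replicate number as a block, 1638 genes rose and 1175 fell, of which 1631 and 1169 were also called without it; deviations of same-numbered libraries correlated at −0.0515 to −0.0371 between the Cre groups, −0.0412 to −0.00358 between the EGFP groups and −0.0157 to 0.0371 between Cre and EGFP cells, so the numbers were not taken as pairs. Of 224 results on single genes, 49 were marked as changed under some alternative and 0 changed sign with a call. The 49 include induction results that were not called in the main test, such as those of Plagl1, Runx2 and Actb. These were marked only by the edgeR test against 2-fold, so the 49 overstates the changed calls. Without 1 library, 8 of 198 genes lost their induction call: Col22a1, Ecm2, Fads2, Foxf1, Gli2, Hlf, Ibsp and Nsdhl. Of 80 counts over lists 22 moved by over 1.5 times under some alternative, 10 of them without 1 library. Genes under about 1 CPM rest on few counts, and in simulated data of the induction contrast a log2 change of 1 was called less often than one of 1.5.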
